A study of Mus musculus with 6 samples.

Results

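Collagens are the 44 genes, of 56884 features in the expression matrices, whose symbol reads Col, a number, the letter a and a number, and nothing more. They were followed in 6 single-cell libraries of mouse lung and cerebral cortex to describe which cells hold which collagen transcript, and how the levels compared between lung and cortex and between controls and mice lacking a growth factor in pericytes. By the assembly their chains are known for, 11 members are fibrillar, 6 form the basement membrane network, 6 the beaded filaments, 3 hexagonal networks and 1 the anchoring fibrils, 9 are fibril-associated, 2 are multiplexins, 4 are transmembrane collagens and 2 belong to none of these groups.

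The lung libraries came from animals at P21, after depletion of CD45+ and Ter119+ cells, and the cortex libraries from animals at P12, after the meninges and then myelin debris were taken off. All animals, the controls too, are listed with tamoxifen from P1 to P3, at 50 µg per injection. Bdnf iPCKO, Hgf iPCKO and Nodal iPCKO animals carried loxP-flanked alleles of Bdnf, Hgf or Nodal together with the Pdgfrb(BAC)-CreERT2 transgene, which is active in pericytes and other mural cells and only to a small extent in fibroblasts, whose PDGFRβ is low, and the controls carried the same loxP-flanked alleles without CreERT2. Bdnf and Hgf were studied in lung and Nodal in cortex, each with 1 control and 1 iPCKO library, and every library pooled the cells of a pair of animals. With 1 library per group there is no replicate check on any difference between groups, so no test was run and each interval given covers counting error only.

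Collagens are secreted or membrane proteins in which 3 chains wind into a triple helix, and most types are built from a few chains of their own, in trimers of 1 chain or of several. Type I is mostly built from Col1a1 and Col1a2 chains and type III from Col3a1 chains alone, and both form the fibrils that give tissues their tensile strength. Type IV forms the sheet-like network under epithelium and endothelium, where the Col4a1 and Col4a2 chains are nearly ubiquitous and the Col4a3, Col4a4 and Col4a5 chains make the network of the alveolar and glomerular basement membranes. Type VI chains form beaded filaments that link cells to that network. Most of the remaining types form other fibrils or networks, decorate fibrils, span membranes or carry antiangiogenic end fragments.

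The libraries held 33889545 to 186701379 UMIs, and 3237 to 24311 barcodes passed the minimum of 1500 UMIs (700 in the Hgf libraries), with medians of 2841 to 7792 UMIs. Marker genes placed 74.8 to 94.3% of these barcodes in 1 cell class, and every marker of every class used was detected. Levels are UMIs of a gene scaled to 1e+06 UMIs of its class and library (CPM), from reads at the 3′ end of transcripts, so they were not divided by gene length. The deleted gene was lower in pericytes of each iPCKO library. Nodal went from 191 UMIs to 0, Hgf from 23 to 10 and Bdnf from 13 to 3, the last of these with overlapping counting intervals (14.5 to 46.5 CPM in control and 1.54 to 21.8 in iPCKO). In ciliated cells of the Bdnf control, Bdnf iPCKO and the Hgf libraries the club cell markers were high as well, at 6417 CPM beside 4743 for the class's own markers in the Bdnf control, and the 76 adventitial fibroblasts of the Hgf iPCKO library had more matrix fibroblast markers (6926 CPM) than their own (5233 CPM). Barcodes with 10 to 100 UMIs, which hold free RNA and no cell, serve as the background, and collagens made up 0.256 to 0.761% of their UMIs. From the markers of other classes, free RNA was estimated at 0 to 6.46% of the UMIs of a class. A level under that of these barcodes therefore does not show that a class lacks the transcript.

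Transcripts of 40 of the 44 members reached 50 UMIs in at least 1 class of 1 library, and 29 of them also reached 100 CPM there. The other 4 were Col19a1 with at most 43.9 UMIs in any class, Col24a1 with 46, Col22a1 with 19 and Col6a4 with 9. In the Bdnf control lung 37 members reached 50 UMIs in a class, and adventitial fibroblasts, the cells around airways and large vessels, had the highest level for 13 of them, endothelial cells for 7, pericytes for 4, alveolar type I (AT1) cells and matrix fibroblasts, the lipid-rich fibroblasts of the alveolar wall, for 3 each. Of the 7 led by endothelial cells, 6 were type II, IX and XI collagens of cartilage, which a few cells supplied in large part. In the control cortex 32 members reached 50 UMIs, and fibroblasts, known from the space around vessels and from meninges, were highest for 21, pericytes and astrocytes for 3 each, endothelial and smooth muscle cells for 2 each and microglia for 1. Of the 23 members over this minimum in all 4 lungs, 14 had the same leading class in each, as did 29 of 32 in both cortex libraries.

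Collagens took up 12.5%, 12.7%, 10.7% and 7.47% of all UMIs of adventitial fibroblasts in the Bdnf control, Bdnf iPCKO, Hgf control and Hgf iPCKO lungs, the order in which the 4 lung values are given throughout. No other class came near this share. Matrix fibroblasts stood at 2.09%, 2.99%, 1.85% and 2.14%, and myofibroblasts, the contractile cells of growing septa, at 2.35%, 2.53%, 1.56% and 1.19%. Lung pericytes held 1.70%, 1.49%, 1.83% and 1.84%, and cortex pericytes 1.14% in control and 1.19% in iPCKO. Cortex fibroblasts reached 3.29% and 2.52%. AT1 cells, an epithelium, were near pericytes with 1.0%, 0.965%, 1.02% and 1.14%. Endothelial cells held 0.405%, 0.313%, 0.256% and 0.199% in lung and 0.326% and 0.278% in cortex, and AT2 cells, which are not known as a collagen source, 0.223%, 0.217%, 0.158% and 0.127%, all of these lung values below the barcodes without a cell (0.761%, 0.674%, 0.449% and 0.332%). The smallest of these classes held 3669.5 collagen UMIs.

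**Figure D1:**
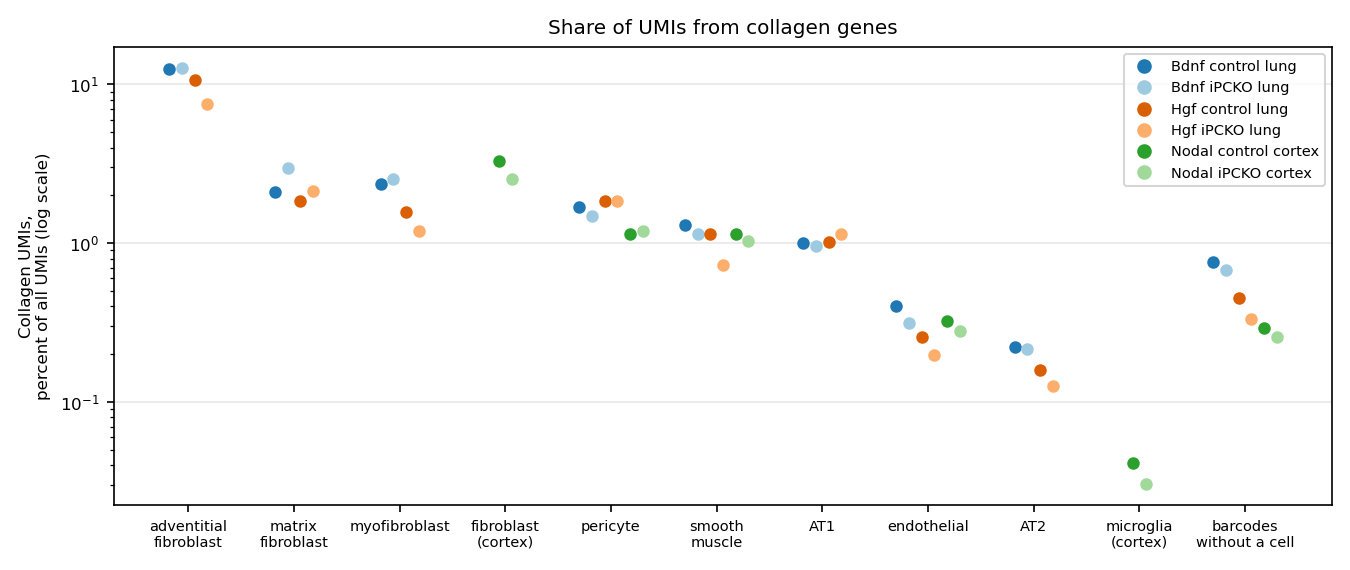
Share of UMIs from the 44 collagen genes (percent of all UMIs of the class, log scale) in 10 cell classes and in barcodes without a cell, 1 point per library. Adventitial fibroblasts lie between 7.47 and 12.7%, above every other class, and cortex microglia at 0.0416 and 0.0304% are lowest.

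**Figure D2:**
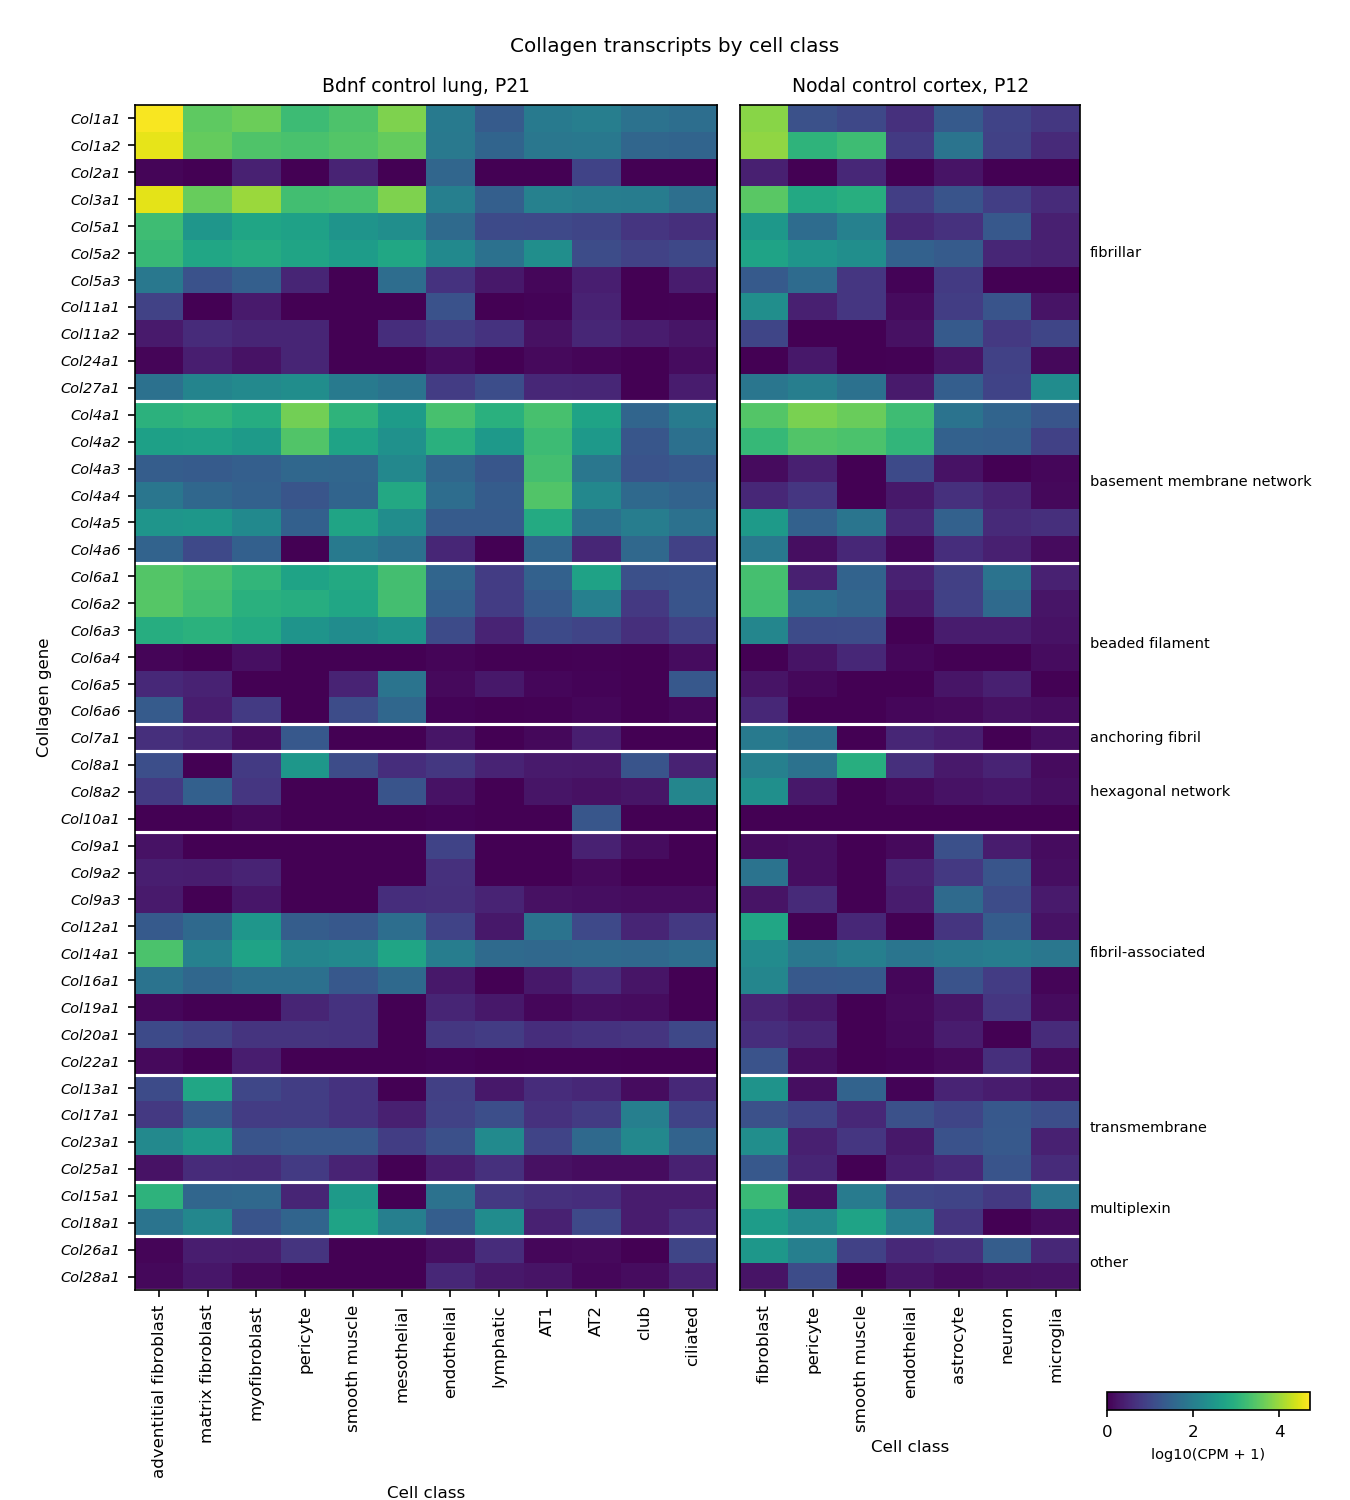
Level of each of the 44 collagen genes (rows, grouped by role) in the cell classes (columns) of the Bdnf control lung and the Nodal control cortex, as log10(CPM + 1). Fibrillar and beaded filament rows are brightest in adventitial and cortex fibroblasts, Col4a3 and Col4a4 in AT1 cells, Col4a1 and Col4a2 in pericytes, and Col1a1 and Col6a1 are dark in cortex pericytes and smooth muscle while Col1a2 is not.

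Fibrillar collagens were led by type I and III in adventitial fibroblasts. Col1a1 stood at 44531, 48204, 39974 and 32124 CPM there, Col1a2 at 33024, 32738, 28947 and 21119.8 CPM and Col3a1 at 31684, 31088, 25810 and 13238 CPM. The lowest value of each was in the Hgf iPCKO library, and adventitial fibroblasts held 87.5% of all Col1a1 UMIs of classed cells in the Bdnf control lung. The next highest class differed between the chains. In the Bdnf control, Col1a1 was second in mesothelial cells (6113 CPM), the lining of the lung surface, Col1a2 in matrix fibroblasts (3929 CPM) and Col3a1 in myofibroblasts (9673 CPM). Lung pericytes carried both type I chains, with Col1a1 at 1686, 1802, 1746 and 1241 CPM and Col1a2 at 2279.5, 2217, 2694 and 2552 CPM, and Col3a1 at 1855, 1635, 2579.8 and 744 CPM. Smooth muscle was alike, with Col1a1 at 2394, 2614, 1898 and 939 CPM and Col3a1 at 2182, 1174, 2316 and 1235 CPM. Barcodes without a cell held Col1a1 at 1698, 1548, 617 and 186 CPM. Pericytes of the Bdnf pair were near this level and smooth muscle above it, with free RNA estimated at 4.11% and 5.83% of the UMIs of those pericytes. AT2 cells were far under it with 100.2, 181, 46.8 and 14.3 CPM. In cortex, fibroblasts had Col1a1 at 7439.9 and 5275 CPM, Col1a2 at 8194 and 5890.3 CPM and Col3a1 at 3136 and 2474 CPM in control and iPCKO.

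Type V chains, which enter type I fibrils and limit their width, were led by the same cells. In adventitial fibroblasts Col5a1 stood at 1720.2, 1900.4, 1326 and 1001 CPM and Col5a2 at 1466, 1539.5, 1373 and 920.5 CPM, and myofibroblasts came next in the Bdnf control with 582 and 793 CPM. Col5a2 was also present where Col5a1 was nearly absent. AT1 cells had Col5a2 at 210.2, 132, 196 and 144 CPM and Col5a1 at 10, 13.9, 3.01 and 1.81 CPM, with Col5a2 at 146, 126, 71.6 and 54.6 CPM in barcodes without a cell. Venous endothelial cells had Col5a2 at 374, 329, 258 and 95.6 CPM, and arterial endothelial cells, of which at least 20 were classed in both Hgf libraries, at 583 and 296 CPM. Col5a3 was the scarcest of the family. It was highest in adventitial fibroblasts in the first 3 lungs (75.9, 100.2, 73.2 and 3.22 CPM in the 4) and in pericytes in cortex (43.4 and 73.8 CPM), where fibroblasts had 20.7 and 20.1 CPM. Col3a1 and Col5a2 lie 16713 bases apart on mouse chromosome 1 (GRCm39).

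Col27a1, a fibrillar collagen known from cartilage and vessel walls, was led by pericytes in both control lungs and stood at 198, 144, 254 and 122 CPM in the 4 lungs. In cortex it was highest in microglia, the resident macrophages of the brain, with 192 and 125 CPM, above pericytes with 103 and 113 CPM. Most of the collagen in microglia was Col27a1, Col14a1 and Col15a1 (46.0%, 17.4% and 16.4% of their collagen UMIs in the control). Of these, Col14a1 lay under the level of free RNA in control microglia. Col11a1, which nucleates the fibrils of cartilage with Col11a2, was found in cortex fibroblasts at 212 and 157 CPM, and Col11a2 in astrocytes at 20.4 and 18.1 CPM. Col24a1 stood in neurons at 7.07 and 8.51 CPM (11 and 46 UMIs).

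Col2a1, Col9a1, Col10a1 and Col11a1, the collagens of cartilage, came from a few lung cells. Cells with at least 10 UMIs of Acan, the core protein of cartilage proteoglycan, numbered 4 of 17154, 9 of 24311, 1 of 14622 and 0 of 16155 in the 4 lungs, and held 98.6%, 95.3% and 94.4% of the Col2a1 UMIs of the first 3, but only 43.1%, 53.1% and 37.6% of those of Col9a3. A single cell carried 873 of the 883 Col10a1 UMIs of the Bdnf control lung. These cells had no class of their own and were scattered among AT2, endothelial, myofibroblast and immune cells or left without a class. For that reason Col2a1 at 34.3 CPM in Bdnf control endothelial cells, or 202 CPM in Hgf control immune cells, is the content of 1 or a few cells, and genotype differences of these 4 members enter the counts but rest in large part on such cells.

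The 6 type IV genes lie in 3 head-to-head pairs, Col4a1 and Col4a2 on chromosome 8, Col4a4 and Col4a3 on chromosome 1, and Col4a6 and Col4a5 on chromosome X (GRCm39, GENCODE). The annotated first exons of Col4a1 and Col4a2 overlap by 318 bases and those of Col4a4 and Col4a3 by 104, and the starts of Col4a6 and Col4a5 are 1281 bases apart.

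Col4a1 and Col4a2 were highest in pericytes in all 6 libraries. Col4a1 reached 5008, 3897, 4686 and 6577 CPM in lung pericytes and 5758 and 5926 CPM in cortex pericytes, and Col4a2 2633, 1961, 2355 and 3354 CPM and 2663 and 2801 CPM. The 3 control libraries spanned 4686 to 5758 CPM of Col4a1, so this chain was about as frequent in pericytes of both organs. AT1 cells came second for Col4a2 in all 4 lungs and for Col4a1 in 3, behind Schwann cells (2096 CPM, 21 cells) in the Bdnf iPCKO lung, the only lung with enough Schwann cells to be ranked. They had Col4a1 at 2179, 1869, 2622 and 3427 CPM and Col4a2 at 1696, 1525, 2294 and 3136 CPM in AT1 cells. Capillary endothelial cells, general (gCap) and aerocyte (aCap), had more Col4a1 than venous ones. The values were 2838, 1924, 1627 and 1210 CPM in gCap, 2737, 1916, 1851 and 1485 CPM in aCap and 548, 320.2, 313 and 296 CPM in venous cells. The latter were below the 689, 598, 580.2 and 518 CPM of barcodes without a cell. In cortex, endothelial cells held Col4a1 at 1765 and 1483 CPM and Col4a2 at 1228 and 1069.5 CPM, which made up 54.1% and 37.7% of the collagen UMIs of control endothelial cells.

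AT1 cells led the Col4a3 and Col4a4 chains in all 4 lungs. Col4a3 stood at 1982, 1819, 1642 and 1450.4 CPM and Col4a4 at 2705, 2848, 2392 and 2489.8 CPM, and 99.5% (95% interval 99 to 99.8%) of the 1310 AT1 cells of the Bdnf control lung had at least 1 UMI of Col4a3, beside 36.9% (95% interval 35.6 to 38.1%) of AT2 cells, at median depths of 7776.5 and 8473 UMIs. No other class over the minimum exceeded 154 CPM of Col4a3 in that library, whereas mesothelial cells had Col4a4 at 697 and 1025 CPM in the Bdnf pair, the only libraries with at least 20 of them. Free RNA held 416, 410.3, 388 and 303 CPM of Col4a3 and 607, 586, 545 and 673 CPM of Col4a4, and the 72.7, 74.3, 45.5 and 63 CPM of Col4a3 in AT2 cells lay under it. Col4a5, the third chain of that network, was shared between AT1 cells at 752, 628, 753 and 519 CPM and smooth muscle cells at 560.1, 432, 437 and 286 CPM. Col4a6, its head-to-head neighbour and the partner of Col4a5 in smooth muscle basement membranes, stood at 87.1, 88.3, 62.4 and 40.8 CPM in smooth muscle and at 33.5, 34.7, 30.9 and 29.7 CPM in AT1 cells, the latter near the 29.4, 34.2, 35.7 and 34.3 CPM of free RNA. In cortex, Col4a5 and Col4a6 were led by fibroblasts (360.5 and 253 and 74.7 and 58.1 CPM), Col4a3 was confined almost wholly to endothelial cells at 10.5 and 5.7 CPM, 90.4% of its UMIs in classed control cells, and Col4a4 did not reach 50 UMIs in a class of the control.

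**Figure D3:**
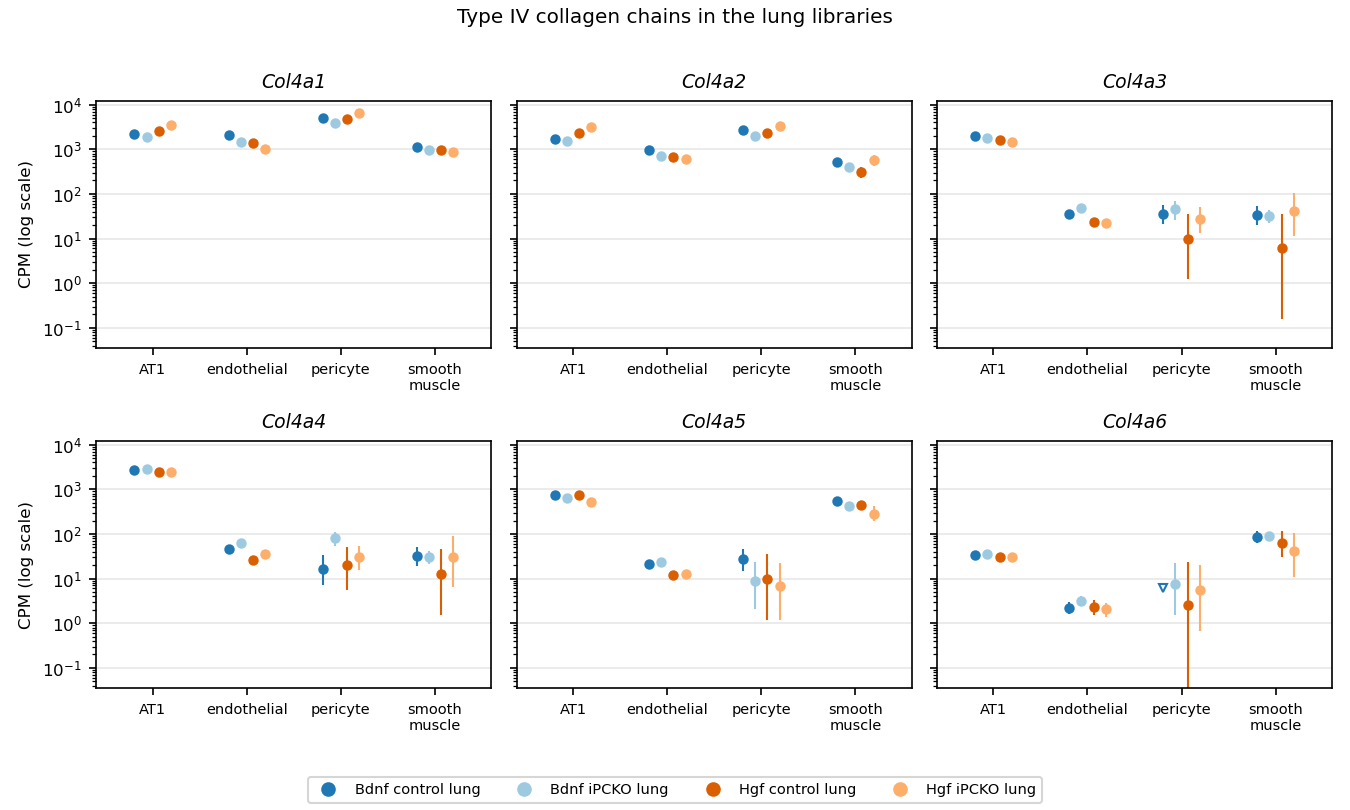
Level of the 6 type IV collagen genes (CPM, log scale) in AT1, endothelial, pericyte and smooth muscle cells of the 4 lung libraries, 1 point per library with its 95% Poisson interval, an open triangle marking the floor of 3 UMIs where none was counted. Col4a1 and Col4a2 are highest in pericytes, Col4a3 and Col4a4 lie between 1450.4 and 2848 CPM in AT1 cells and far lower in the other classes, and Col4a5 is high in AT1 and smooth muscle cells.

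Beaded filament chains Col6a1, Col6a2 and Col6a3 were highest in fibroblasts or myofibroblasts in both organs, except for Col6a3 in the Hgf iPCKO lung, which pericytes led at 275 CPM over matrix fibroblasts. In adventitial fibroblasts Col6a1 stood at 2819.5, 2758, 2054 and 1612 CPM and Col6a2 at 2871, 2471, 2062 and 1172 CPM, and in matrix fibroblasts Col6a3 at 992, 729, 595 and 252 CPM. Cortex fibroblasts held 2079 and 1826 CPM of Col6a1 and 1925 and 1762 CPM of Col6a2 but only 146 and 103 CPM of Col6a3, the chain that carries most of the filament's binding domains. Lung pericytes had all of them, with Col6a1 at 531, 847, 768 and 1191 CPM, Col6a2 at 844, 634, 783 and 766 CPM and Col6a3 at 265, 206, 534 and 275 CPM. AT2 cells held Col6a1 above the level of free RNA, and its partners near it or lower. Col6a1 was at 506, 480, 315 and 266 CPM there, above the 287, 273, 153 and 77 CPM of free RNA in each library, Col6a2 at 111, 76.5, 68.9 and 20.8 CPM beside 173, 127, 68 and 24.7 CPM of free RNA, and Col6a3 at 8.03, 10.4, 3.03 and 0.653 CPM. By number of UMIs AT2 cells held 46.9% of the Col6a1 of classed cells in the Bdnf control lung, and 87.3% (95% interval 86.4 to 88.1%) of these 5872 cells had at least 1 UMI, beside 45.2% (95% interval 43.9 to 46.5%) for Col6a2, and 43.1% had both. In cortex neurons Col6a1 stood at 61.7 and 58.8 CPM, near the 52.5 and 43 CPM of free RNA.

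The other beaded filament chains, which can stand in for Col6a3, were scarce. Col6a5 stood at 64.5 and 48.3 CPM in mesothelial cells of the Bdnf pair and at 18.9, 31.8, 17.3 and 28.7 CPM in ciliated cells of the 4 lungs. Col6a6 was highest in adventitial fibroblasts of the Bdnf pair (21.1, 35.2, 23.3 and 3.22 CPM in the 4 lungs) and Col6a4 reached no more than 9 UMIs in any class.

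Col7a1, the chain of the fibrils that anchor epithelium to its stroma, was low in lung, at 18.8, 32.3, 9.98 and 19.4 CPM in pericytes. In cortex it stood at 80.3 and 65 CPM in fibroblasts and 52.2 and 74.5 CPM in pericytes, with 10.8 and 15.9 CPM in free RNA.

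The hexagonal network chains Col8a1 and Col8a2, known from vessel walls and from the membrane under the corneal endothelium, were led by different cell classes. In lung Col8a1 was highest in pericytes, at 301, 323, 728 and 647 CPM, with 11.4, 18.3, 43.7 and 0 CPM in smooth muscle. Pericytes held the largest share of the Col8a1 UMIs of classed cells in the Bdnf control (31.2%), Hgf control (57.6%) and Hgf iPCKO lung (70.9%), and adventitial fibroblasts held it in the Bdnf iPCKO lung (25.3%). The order was the opposite in cortex, where smooth muscle had 869 and 918 CPM and pericytes 57.9 and 47.5 CPM. A Col8a1 UMI was found in 32.5% (95% interval 24.2 to 41.6%) of the 120 Bdnf control lung pericytes, at a median depth of 3546.5 UMIs, and in 0.46% (95% interval 0.303 to 0.668%) of AT2 cells at 8473. In the control cortex it was found in 17.2% (95% interval 13.2 to 21.9%) of 313 pericytes at 5857 UMIs, 74.5% (95% interval 59.6 to 86.1%) of 47 smooth muscle cells at 8845 and 0.223% (95% interval 0.027 to 0.803%) of microglia at 6082. Col8a2 was led by ciliated cells in lung (144, 114, 250.1 and 154 CPM), with 70.4% (95% interval 63.3 to 76.9%) of the 186 ciliated cells of the Bdnf control holding a UMI, and by fibroblasts in cortex (219 and 226 CPM). Cortex fibroblasts had both chains, being second for Col8a1, and all 21 of the 87 control fibroblasts with a Col8a1 UMI also had one of Col8a2.

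Among the fibril-associated collagens, which sit on fibrils and do not form any of their own, Col14a1 was led by adventitial fibroblasts in all 4 lungs and Col12a1 by myofibroblasts, though with only 47 UMIs in the Hgf control. Col14a1 stood at 2305, 2068, 2336 and 908 CPM in adventitial fibroblasts and Col12a1 at 290.3, 372, 180.2 and 174 CPM in myofibroblasts. In cortex both were led by fibroblasts, Col12a1 at 595 and 528 CPM and Col14a1 at 183 and 171 CPM, but outside fibroblasts no class with 50 UMIs had more Col14a1 than the 95.4 and 64.1 CPM of neurons, beside 99.2 and 62.5 CPM in free RNA. In the control and iPCKO cortex 26.3% and 21.9% of Col14a1 UMIs came from entries that were not whole, where reads matched several genes. In the 4 lungs these were 8.60%, 7.11%, 9.95% and 8.82%. Col16a1 was shared by adventitial fibroblasts (60.2, 62.5, 64.3 and 83.7 CPM) and pericytes (54.3, 37.3, 125 and 52.8 CPM) in lung and led by fibroblasts in cortex (143 and 95.5 CPM). Type IX chains, whose trimer needs all 3, parted in cortex. Col9a1 was highest in astrocytes (12.8 and 14.2 CPM) and Col9a2 in fibroblasts (59.6 and 40.8 CPM). Col9a3 stood at 41.7 and 35.9 CPM in astrocytes, the highest class of the control, and oligodendrocyte precursors led it in the iPCKO cortex at 346 CPM. The control cortex had 3 of these precursors, under the minimum of 20 cells, so they were not ranked there. In the 25 oligodendrocyte precursors of the iPCKO cortex Col9a3 made up 33.1% and Col11a2 21.2% of 151 collagen UMIs. Col20a1 was highest in adventitial fibroblasts of the Bdnf control, at 10.3 CPM, under the 14.5 CPM of free RNA.

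The transmembrane collagens had several leading classes in lung, and Col25a1 reached 50 UMIs in none there. Col13a1, a cell adhesion collagen, was found in matrix fibroblasts at 596, 316, 527 and 159 CPM, with 10.7 CPM in adventitial fibroblasts of the Bdnf control. Col17a1, the collagen of hemidesmosomes in basal epithelium, was led by club cells, the secretory cells of the airways, in the first 3 lungs and stood at 106, 64, 187 and 7.87 CPM there in the 4, the last from 16.5 UMIs and beside 8.59 CPM in endothelial cells. Col23a1 was highest in matrix fibroblasts in the Bdnf control and in lymphatic endothelial cells in the Hgf control, and stood at 348, 215, 113 and 103 CPM and 175, 270.1, 261 and 374 CPM in these classes, beside 194, 218, 172 and 396 CPM in free RNA. In cortex, fibroblasts led Col13a1 (261 and 195 CPM) and Col23a1 (212 and 221 CPM), and endothelial cells Col17a1 in the control (13.8 and 8.2 CPM). Col25a1, known from neurons and developing muscle, stayed under free RNA, with 15.4 and 10.2 CPM in cortex neurons and 27.8 and 17.5 CPM in barcodes without a cell.

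The multiplexins Col15a1 and Col18a1, basement membrane collagens whose end fragments, restin and endostatin, restrain vessel growth, had different leading classes in both control lungs. Col15a1 stood at 1087, 1038, 976 and 122 CPM in adventitial fibroblasts, 367, 444, 162 and 30.6 CPM in smooth muscle and 64.8, 37.5, 86.7 and 4.7 CPM in gCap cells, against 39.9, 34.2, 23.7 and 1.99 CPM in free RNA. Col18a1 was highest in smooth muscle of both control lungs and both cortex libraries, with 534, 383, 437 and 122 CPM in the 4 lungs and 531 and 573 CPM in cortex. In the Bdnf iPCKO lung it was led by the 21 Schwann cells at 1483 CPM, and the Hgf iPCKO value rests on 12 UMIs. Cortex fibroblasts had Col15a1 at 1538 and 1163 CPM and Col18a1 at 388 and 331 CPM, while Col15a1 stood at 90.4 and 49.6 CPM in smooth muscle and 68.4 and 63.4 CPM in microglia. Of the 2 members outside all groups, Col26a1 stood at 310 and 192 CPM in fibroblasts and 106 and 164 CPM in pericytes, and Col28a1 at 11.4 and 7.38 CPM (22 and 21 UMIs) in cortex pericytes. In lung Col26a1 stood at 8.64, 5.25, 13.4 and 8.69 CPM in ciliated cells, and Col28a1 reached 50 UMIs in Bdnf control endothelial cells, at 2.37 CPM.

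For 9 leading members, the genes with the most similar order of levels were ranked by Spearman correlation over the 25 class values of both control lungs, among 9165 genes. The class values of a lung share its library and depth, so these are descriptions. Col1a1 was closest to Col3a1 (correlation 0.986), the complement gene C4b (0.950) and Col6a1 (0.929), Col6a1 to Col6a2 (0.952), Col6a3 and Col1a2 (0.945 each), and Col4a1 to Col4a2 (0.979), Unc50 (0.919) and Dlc1 (0.907). Col4a3 was closest to Scel (0.815), P4ha1, which encodes a subunit of the collagen prolyl hydroxylase (0.799), and Akap5 (0.788), Col13a1 to Svep1 (0.893), Acvr2a (0.889) and Sgtb (0.862), and Col14a1 to Tnxb (0.868), Mtmr11 (0.861) and Mfap5 (0.855). Akap5 and Mfap5 are among the markers that placed cells in classes. Col15a1 was closest to Smoc1 (0.911), the chemokine gene Cxcl12 (0.883) and Enpp3 (0.810), Col18a1 to Phyhd1 (0.865), Adamts15 (0.859) and Ltbp1 (0.855), and Col8a1 only loosely to Endod1 (0.706), Mtap (0.663) and Pcbp3 (0.635).

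To compare the organs, control cortex was set beside both control lungs in pericytes, smooth muscle, endothelial cells and fibroblasts, and a member was counted where it differed by at least 2-fold from both lungs in the same direction. Of 106 pairs of member and class with enough UMIs, 35 were higher and 37 lower in cortex, beside 12.6% and 11.9% of all pairs of gene and class. The members lower in cortex pericytes included Col1a1, Col6a1 and Col6a2. Col1a2, the partner chain of Col1a1, was not counted as lower. Col6a2 was 17.19- and 15.95-fold lower, beside 342- and 495.5-fold for its partner Col6a1. Organ, age and dissociation went together with the library and cannot be told apart.

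In pericytes, Col1a1 stood at 1686 and 1746 CPM in the control lungs and at 13.4 (95% interval 8.78 to 19.7) CPM in the control cortex, 125- and 130-fold lower. Those cortex pericytes had Col1a2 at 1154 CPM, 1.98- and 2.34-fold below the lungs. Nearly every control cortex pericyte held the one chain and few the other. Of 313 cells, 90.4% (95% interval 86.6 to 93.4%) had a Col1a2 UMI and 5.75% (95% interval 3.44 to 8.94%) a Col1a1 UMI, at a median of 5857 UMIs. Microglia, 897 cells at 6082 UMIs, had 1.45% (95% interval 0.774 to 2.47%) and 2.79% (95% interval 1.81 to 4.09%), so the Col1a1 share of pericytes was near this background. In the Nodal iPCKO cortex the shares were 95.6% and 7.56% of 450 pericytes. Cortex smooth muscle had this pattern too, with Col1a2 in 100% (95% interval 92.5 to 100%) and Col1a1 in 6.38% (95% interval 1.34 to 17.5%) of 47 control cells, and Col1a1 at 9.27 and 13.9 CPM in control and iPCKO. That control class also held pericyte markers at 14368 CPM beside 18618 CPM of its own, and the part of this in the result was not tested. Every one of the 87 control cortex fibroblasts had both chains, and 90% (95% interval 83.2 to 94.7%) of the 120 Bdnf control lung pericytes had Col1a1, at a median of 3546.5 UMIs. The cortex pericyte level of Col1a1 also lay below the 191 CPM of barcodes without a cell.

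Type VI chains parted as well, though both were lower in cortex pericytes than in lung. Col6a1 was at 531 and 768 CPM in control lung pericytes and at 1.55 (95% interval 0.32 to 4.53) CPM, 3 UMIs, in control cortex pericytes, log2 differences of −8.42 and −8.95. Col6a2 was at 844 and 783 CPM in lung and 49.1 CPM in cortex, log2 differences of −4.10 and −4.0, and was found in 18.9% (95% interval 14.7 to 23.6%) of control cortex pericytes beside 0.639% (95% interval 0.0775 to 2.29%) for Col6a1. In microglia 1.11% of cells had Col6a1 and 0.557% Col6a2, so only Col6a2 stood above this background in pericytes. In control cortex smooth muscle these chains did not part, with Col6a1 at 30.1 and Col6a2 at 34.8 CPM.

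Promoter sequence of the chain seen without its partner is shown for Col1a2 and Col6a2, because both genes were read in cortex pericytes where Col1a1 and Col6a1 were nearly absent. Each run is the longest part of the 250-base RefSeq window that no annotated exon of the gene covers, 5′ to 3′ on the gene's strand. It ends next to the annotated start of the gene's canonical transcript, and the annotation of Col1a2 begins upstream of its run. Capitals mark GGGCGG on either strand (CCGCCC where it lies on the other strand), the core of a GC box. The Col1a2 run is chr6:4505370-4505492 (GRCm39, plus strand) and the Col6a2 run chr10:76459550-76459714 (GRCm39, minus strand), and a window was given for 35 of the 44 members.
Col1a2: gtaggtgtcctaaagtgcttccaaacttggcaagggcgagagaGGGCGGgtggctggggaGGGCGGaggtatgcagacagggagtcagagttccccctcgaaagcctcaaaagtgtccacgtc
Col6a2: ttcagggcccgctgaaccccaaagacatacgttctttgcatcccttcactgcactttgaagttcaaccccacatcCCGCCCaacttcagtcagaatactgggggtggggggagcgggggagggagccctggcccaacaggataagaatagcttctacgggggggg
The Col1a2 run held 2 matches, beside at least 1 in 26.7% of 32851 RefSeq promoters cut to the 123 bases next to their RefSeq start. The Col6a2 run held 1, beside 29.5% of promoters cut to the 165 bases there. The Col6a2 run itself lies further from its RefSeq start than those 165 bases reach. These shares, and those that follow, therefore match the runs in length but not always in position. CCAAT was in neither run (21.6% and 26.1% of promoters held it), nor was TATAAA (6.48% and 8.22%), on both strands searched. Col6a2 lies 83890 bases from Col6a1 on chromosome 10, and Col1a2 and Col1a1 are on chromosomes 6 and 11.

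In pericytes 8 of 19 members were lower in cortex and 4 higher, beside 8.01% and 12.5% of all genes of the class. Lower were also Col3a1 (log2 −1.42 and −1.89 against the Bdnf and Hgf control lungs), Col5a1 (−3.40 and −2.64), Col6a3 (−4.61 and −5.62), Col8a1 (−2.38 and −3.65) and Col16a1 (−1.47 and −2.67). Higher were Col5a3 (4.38 and 2.12), Col7a1 (1.47 and 2.39), Col18a1 (2.37 and 1.57) and Col26a1, which went from 4.18 and 0 CPM in the control lungs to 106 CPM. Col5a3 stood at only 2.09 and 9.98 CPM in the control lungs, with wide counting intervals (1.86 to 9.70 and 0.22 to 5.19). Those of Col7a1 were 0.49 to 2.64 and 0.50 to 5.45. In smooth muscle, where 6.55% of all genes were lower and 15.5% higher, 5 of 14 members were lower, Col1a1 (log2 −8.01 and −7.68), Col3a1 (−1.28 and −1.37), Col4a5 (−3.08 and −2.73), Col6a1 (−4.59 and −4.47) and Col6a2 (−4.12 and −4.30), and 3 higher. The higher ones were Col4a1 (log2 1.93 and 2.16), Col4a2 (2.16 and 2.96) and Col8a1 (6.26 and 4.31). Control cortex smooth muscle also held pericyte markers at 14368 CPM, beside 18618 CPM of its own. In smooth muscle of the Bdnf and Hgf control lungs the next marker list stood at 1064 and 1442 CPM. The part of this in the result was not tested.

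**Figure D4:**
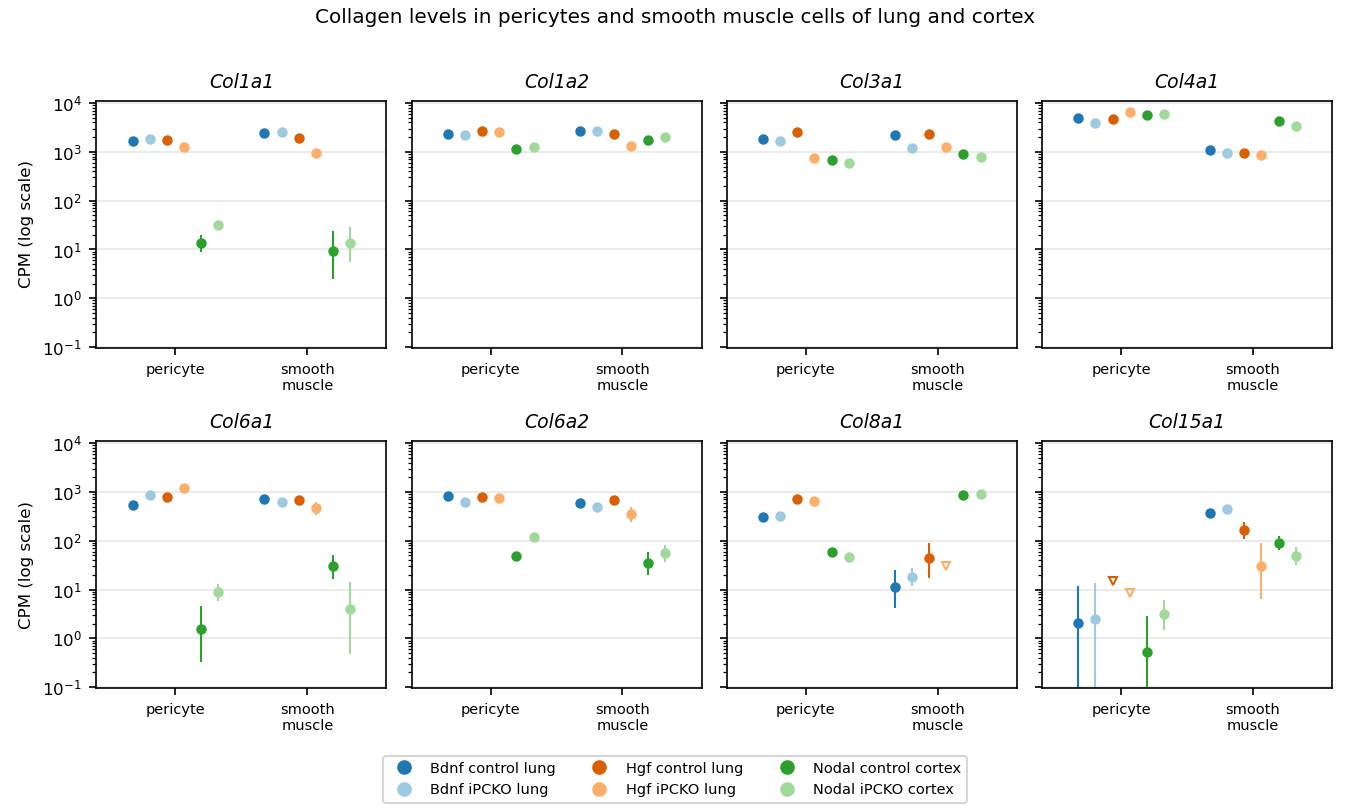
Level of 8 collagen genes (CPM, log scale) in pericytes and smooth muscle cells of all 6 libraries, 1 point per library with its 95% Poisson interval, an open triangle marking the floor of 3 UMIs where none was counted. Col1a1 and Col6a1 drop by over 1 unit of the log10 axis between lung and cortex, Col1a2 stays closer, Col4a1 stays close in pericytes and is higher in cortex smooth muscle, and Col8a1 is high in lung pericytes and in cortex smooth muscle.

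In endothelial cells 13 of 19 members were lower in cortex and 1 higher, beside 17.5% and 10.1% of all genes of the class. Of the lower members 11 stood at or below the level of barcodes without a cell in both control lungs, leaving Col5a2 (log2 −2.56 and −1.82) and Col15a1 (−2.66 and −2.50). Col18a1 was the member that was higher, from 23.9 and 9.44 CPM in the control lungs to 96.1 CPM, near the 94.3 CPM of free RNA in cortex. Cortex fibroblasts had 13 of 28 members higher and 9 lower than lung adventitial fibroblasts, beside 14.4% and 8.25% of all genes. Compared with matrix fibroblasts, 14 of 26 members were higher and 2 lower, beside 15% and 10.5% of all genes. Against adventitial fibroblasts, the fibrillar chains Col1a1 (log2 −2.58 and −2.43) and Col3a1 (−3.34 and −3.04) and the fibril-associated Col14a1 (−3.65 and −3.67) were lower. Higher were Col8a2 (5.36 and 6.22), Col11a1 (4.85 and 5.90), Col12a1 (4.85 and 5.52), Col13a1 (4.61 and 4.88), Col7a1 (4.59 and 4.77), Col18a1 (2.64 and 2.55) and Col4a1 (1.40 and 1.51). Col6a3 and Col13a1 were the members lower in cortex than in matrix fibroblasts (log2 −2.77 and −2.03 and −1.19 and −1.01).

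Genotypes were compared within each pair of libraries, class by class, where control and iPCKO together had at least 50 UMIs, and a member counted as different past 1.5-fold. Endothelial subtypes are named beside all endothelial cells and do not enter the counts. Both control lungs were compared in the same way, to show how far libraries of the same kind lie apart, and 106 of 215 pairs of member and class (49.3%) differed past 1.5-fold between them, beside 27.2% of all pairs of gene and class. The genotype comparisons gave 79 of 258 such pairs in the Bdnf lungs, 75 of 157 in the Hgf lungs and 38 of 124 in the cortex.

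The Bdnf iPCKO lung had 47 of 258 pairs of member and class higher and 32 lower than its control, beside 7.80% and 5.66% of all genes and classes, with a median log2 difference of 0.03 over the members. Without the Acan-rich cells these were 43 higher and 23 lower of 244, and with a stricter marker gate 26 higher and 28 lower of 221. For 46 of the 79 the counting interval left out 0 and the level was above free RNA in control or iPCKO. Of these 19 were higher and 27 lower, and leaving out the type II, IX, X and XI chains 15 higher and 17 lower. In matrix fibroblasts Col1a1 went from 3397 to 9002 CPM, log2 1.41 (1.36 to 1.45), Col14a1 from 116 to 394, log2 1.77 (1.55 to 1.98), and Col1a2, Col5a1 and Col15a1 were higher by 0.82, 0.68 and 1.21. In the same cells Col13a1, one of the members they led, was lower, log2 −0.92 (−1.07 to −0.76), as were Col23a1 (−0.70) and Col8a2 (−0.96). The Hgf pair gave the same direction for Col1a1, Col1a2, Col14a1 and Col13a1 in matrix fibroblasts, with log2 0.80, 0.61, 0.99 and −1.73. In the Bdnf pair the adventitial markers of this class went from 841 to 1305 CPM and its own from 10596 to 8324 CPM, and the part of this in the result was not tested. The values depended on which cells were called matrix fibroblasts. With a stricter marker gate and with classes taken from clusters, the Bdnf pair gave 0.56 and 0.25 for Col1a1, 1.14 and 0.30 for Col14a1 and −0.26 and −0.24 for Col13a1, and Col1a2 went to 0.15 and −0.11, Col5a1 to 0.43 and 0.26 and Col8a2 to −0.41 and −0.16, while Col23a1 was at −0.56 with clusters. In the Hgf pair Col1a1 turned to −0.33 and −1.33 and Col1a2 to −0.03 and −1.07, while Col13a1 was at −1.11 with clusters.

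Myofibroblasts had 10 of 29 members higher and 1 lower in the Bdnf pair, beside 5.58% and 4.86% of all genes of the class, and without the Acan-rich cells 4 of 24 higher and 1 lower. Leaving out cartilage collagens, the higher ones above free RNA were Col15a1, from 37.2 to 113 CPM, log2 1.61 (1.35 to 1.87), Col8a1 (1.73, but 0.34 without the Acan-rich cells and 2.83 with the UMI minimum doubled) and Col27a1 (0.61, or 0.47 with clusters), and the lower one was Col5a3 (−1.78). In adventitial fibroblasts Col8a1 was higher, log2 1.60 (1.20 to 2.02) and 1.01 with the stricter gate, with Col4a6 (0.80, and within 1.5-fold at 0.52 with the stricter gate), Col6a6 (0.73, and 0.43 and 0.48 with the stricter gate and clusters) and Col7a1 (1.14), while Col1a1, Col1a2 and Col3a1 differed by 0.11, −0.01 and −0.03 only. Pericytes, the target of the deletion, had 1 of 13 members higher and 1 lower, beside 8.07% and 7.27% of all genes of the class. Col6a1 was higher, from 531 to 847 CPM, log2 0.68 (0.44 to 0.92), but 0.22 with clusters, and Col14a1 lower, log2 −1.01 (−1.72 to −0.34), but −0.33 with the stricter gate and −0.26 with clusters. Their Col4a1 was at log2 −0.36 (−0.46 to −0.27) and their Col4a2 at −0.42 (−0.56 to −0.30), both within 1.5-fold. In smooth muscle Col3a1 was lower, log2 −0.89 (−1.0 to −0.78), as was Col27a1 at the limit of 1.5-fold (−0.59, within it under 5 alternatives, from −0.38 to −0.56).

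Col15a1 was lower in Bdnf iPCKO endothelial cells, from 58.1 to 33.2 CPM, log2 −0.81 (−0.94 to −0.67), and in gCap and venous cells alike (−0.79 and −1.63). Col18a1 was lower in venous cells (−0.79), Col5a3 in endothelial cells (−0.81) and Col4a1 in lymphatic cells (log2 −0.71 (−0.88 to −0.54)), where Col23a1 was higher (0.62, but 0.55 with the UMI minimum doubled and 0.32 with clusters). Endothelial Col4a1 went from 2113 to 1425 CPM, log2 −0.57 (−0.59 to −0.55), just within 1.5-fold. In epithelium, AT1 cells had less Col12a1 (−0.74) and Col5a2 (−0.67), club cells less Col17a1 (−0.73, but −0.54 with the stricter gate and −0.11 with clusters) and Col8a1 (−0.88), and ciliated cells more Col6a5 (0.75). Mesothelial cells, 32 in control and 111 in iPCKO, had less Col1a1 (−0.62), Col6a3 (−1.81) and Col18a1 (−1.38). In the iPCKO library these cells also had more matrix fibroblast markers (13141 CPM) than mesothelial ones (8605 CPM), and the part of this in the result was not tested.

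The Hgf iPCKO lung had 21 of 157 pairs of member and class higher and 54 lower, beside 14.2% and 15.4% of all genes and classes, with a median log2 difference of −0.18 over the members. Of 41 differences whose interval left out 0 and whose level was above free RNA in control or iPCKO, 34 were lower and 7 higher. Adventitial fibroblasts, 240 cells in control and 76 in iPCKO, had 11 of 19 members lower and 0 higher, with a median log2 of −0.82 beside 0.03 over all genes of that class, of which 20.8% were lower past 1.5-fold and 20.3% higher. Col15a1 went from 976 to 122 CPM, log2 −3.0 (−3.50 to −2.53), Col14a1 from 2336 to 908 CPM, log2 −1.36 (−1.54 to −1.19), and Col3a1 from 25810 to 13238 CPM, log2 −0.96 (−1.01 to −0.92). In the Bdnf pair these 3 differed by −0.07, −0.16 and −0.03. Col5a3 was down from 124 UMIs to 1, log2 −4.51 (−9.82 to −2.0), and Col27a1 from 61 to 1, log2 −3.48 (−8.81 to −0.95), or −1.34 with clusters. Lower were also Col18a1 (−1.04), Col4a5 (−0.89), Col6a2 (−0.82) and Col6a3 (−0.83), while Col1a1 and Col1a2 differed by −0.32 and −0.46. The adventitial markers of this class were lower in iPCKO too, 7616 CPM in control and 5233 CPM, its matrix fibroblast markers went from 5096 to 6926 CPM, and the part of this in the result was not tested.

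Col3a1 was lower past 1.5-fold in 4 of the 5 mesenchymal classes of the Hgf pair. Beside adventitial fibroblasts, in pericytes it went from 2579.8 to 744 CPM, log2 −1.79 (−2.01 to −1.58) (−1.06 with clusters), in myofibroblasts from 5394 to 1918, log2 −1.49 (−1.60 to −1.38), and in smooth muscle log2 was −0.91 (−1.22 to −0.61). Matrix fibroblasts, the exception, had a difference of −0.55 (−0.69 to −0.40), within 1.5-fold. Col6a3 was lower as well, with log2 −1.24 in matrix fibroblasts, −1.58 in myofibroblasts and −0.96 in pericytes. Adventitial markers were lower in these classes of the iPCKO library, from 1021 to 615 CPM in myofibroblasts, 69.9 to 41.7 CPM in pericytes and 287 to 102 CPM in smooth muscle. Free RNA was lower as well, Col3a1 going from 421 to 76.5 CPM and Col1a1 from 617 to 186 CPM in barcodes without a cell, and the part of these in the result was not tested.

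Pericytes of the Hgf iPCKO lung, 228 beside 107 in control, had 5 of 13 members lower and 1 higher, beside 11.8% and 18.8% of all genes of the class. Beside Col3a1 and Col6a3, the lower ones were Col5a2 (−0.76), Col14a1 (−1.05, but −0.32 with clusters) and Col27a1 (−1.06). The higher one was Col6a1, from 768 to 1191 CPM, log2 0.63 (0.36 to 0.91), which fell to 0.53 with the stricter gate, as with clusters, and to 0.56 with median-of-ratios scaling, all within 1.5-fold. Col4a1 and Col4a2 were at log2 0.49 (0.38 to 0.60) and 0.51 (0.35 to 0.67). Smooth muscle, with only 63 and 48 cells, had less Col1a1 (−1.01), Col1a2 (−0.85), Col18a1 (−1.83, or −1.24 with clusters) and Col6a2 (−0.98) and more Col4a2 (0.90 (0.32 to 1.49)). The markers of smooth muscle itself went from 10280 to 6198 CPM, and the part of this in the result was not tested. With clusters its Col1a1 and Col1a2 were within 1.5-fold, at −0.57 and −0.32. In myofibroblasts, 114 and 430 cells, Col14a1 was lower (−2.20) and Col4a1 higher (0.72), and in matrix fibroblasts Col27a1 (−1.15, or −2.12 with clusters) and Col4a5 (−0.70, but −0.27 with clusters) were lower.

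Endothelial Col15a1 stood at 52 CPM in the Hgf control and 3.92 CPM in the iPCKO library, log2 −3.73 (−4.14 to −3.35), and in gCap cells at 86.7 and 4.7 CPM, log2 −4.20 (−4.89 to −3.58). Free RNA had Col15a1 at 23.7 and 1.99 CPM in the same libraries. Col5a2 was lower in endothelial, venous and arterial cells, log2 −1.02, −1.43 and −0.98, Col12a1 in aCap cells (−2.87) and Col19a1 in endothelial cells (−1.34). The Col19a1 value rests on 36.8 and 17.5 UMIs. In the Hgf control and iPCKO libraries 31.6% and 22.6% of Col19a1 UMIs came from entries that were not whole. In AT1 cells Col12a1 went from 53.3 to 9.05 CPM, log2 −2.56 (−3.22 to −1.95), and in club cells Col17a1 from 187 to 7.87 CPM, log2 −4.57 (−5.38 to −3.86), or −2.90 with clusters. Col4a3 and Col4a4 in AT1 cells differed by −0.18 (−0.24 to −0.12) and 0.06 (0.01 to 0.10), and by −0.12 and 0.07 in the Bdnf pair. Col6a2 was lower in AT2 cells, from 68.9 to 20.8 CPM (−1.73), while free RNA went from 68 to 24.7 CPM of it and the class's own markers from 105342 to 78356 CPM, and their part in the result was not tested. Col8a2 was lower in ciliated cells (−0.70), and Col6a5 was higher in ciliated cells (0.73, but 0.32 with the stricter gate).

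**Figure D5:**
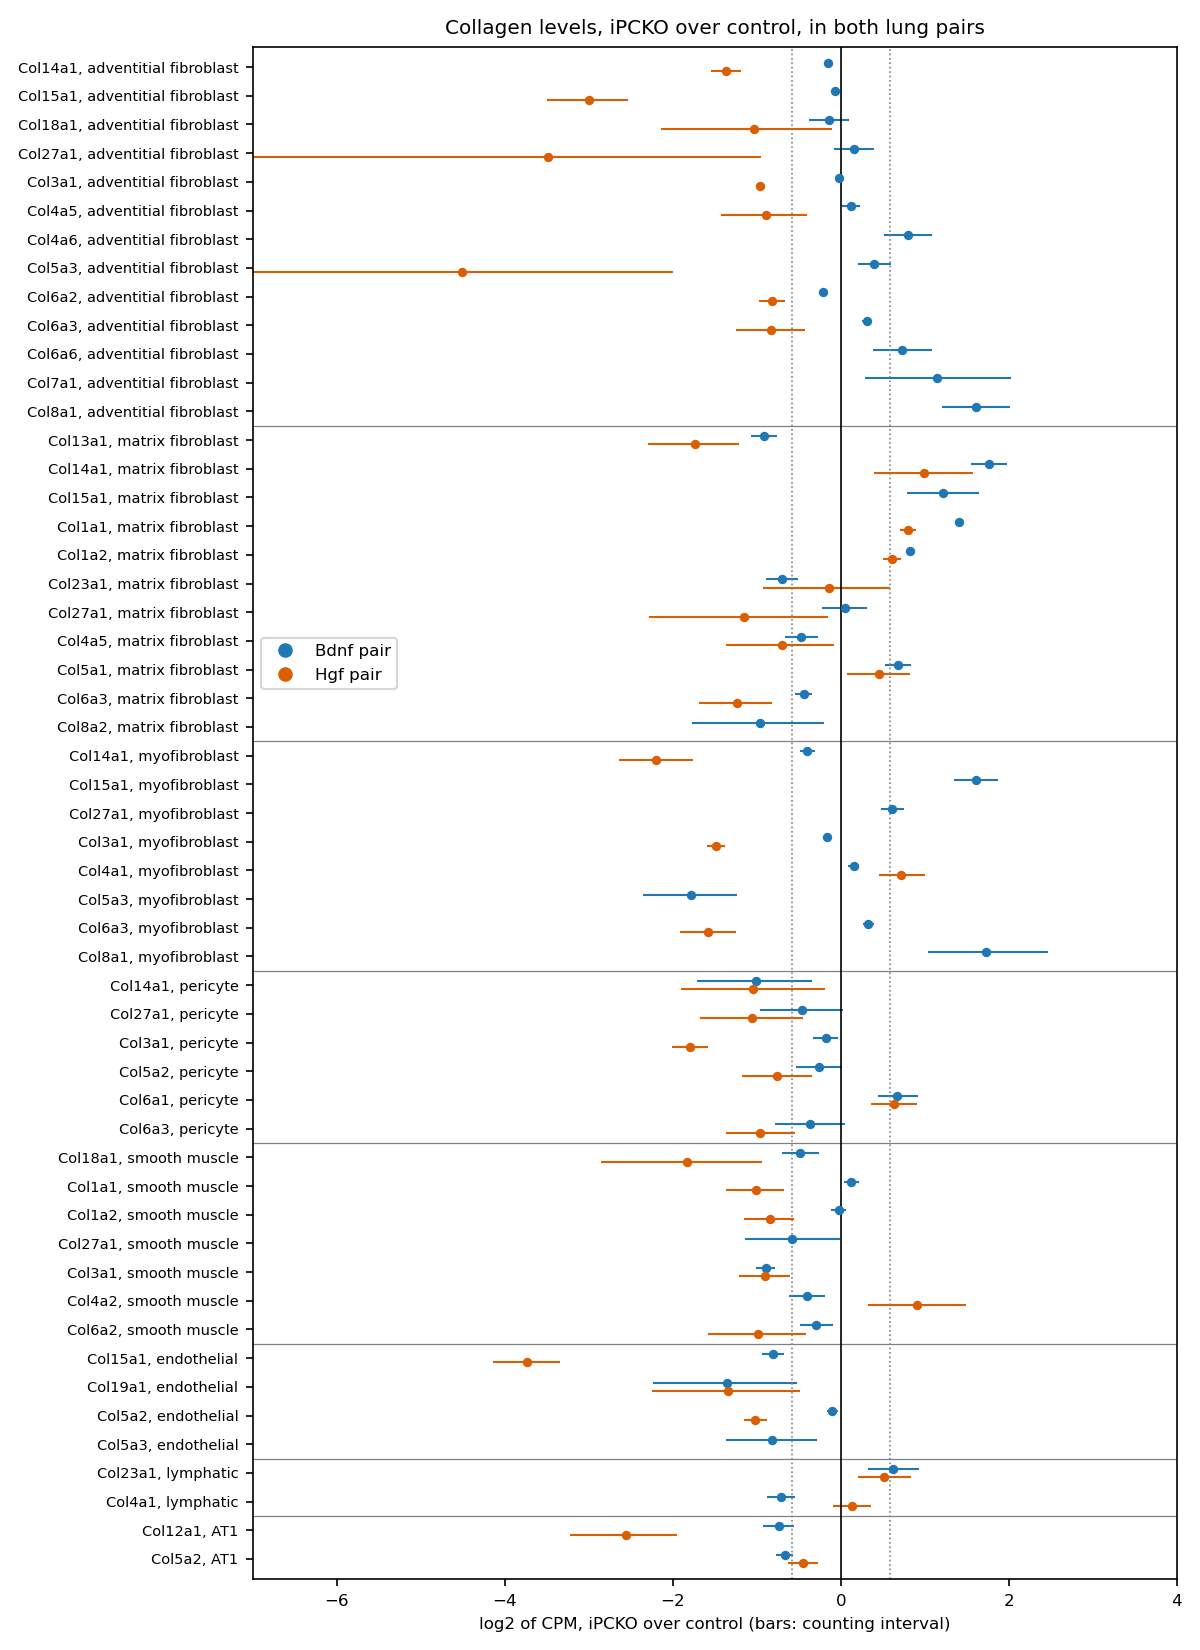
Difference of collagen levels between iPCKO and control (log2 of the CPM ratio) in the Bdnf and Hgf lung pairs for the members named in 8 cell classes, cartilage collagens left out, with bars for the 95% counting interval and dotted lines at 1.5-fold. Col15a1, Col3a1 and Col14a1 lie to the left of 0 in the Hgf pair and close to 0 in the Bdnf pair in adventitial fibroblasts, and Col13a1 in matrix fibroblasts lies to the left in both.

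The Nodal iPCKO cortex had 13 of 124 pairs of member and class higher and 25 lower, beside 4.72% and 5.55% of all genes and classes, with a median log2 difference of −0.23. Of these differences 14 had an interval that left out 0 and a level above free RNA in control or iPCKO. Pericytes had 4 of 18 members higher and 1 lower, beside 4.41% and 4.12% of all genes of the class. Col6a2 went from 49.1 to 119.5 CPM, log2 1.28 (0.95 to 1.63), and was found in 18.9% (95% interval 14.7 to 23.6%) of control and 33.8% (95% interval 29.4 to 38.4%) of iPCKO pericytes, at median depths of 5857 and 5777 UMIs. Col5a3 went from 43.4 to 73.8 CPM, log2 0.77 (0.39 to 1.15), and Col26a1 from 106 to 164 CPM, log2 0.63 (0.39 to 0.88), or 0.58 with the stricter gate. Col1a1 went from 26 to 89 UMIs and Col6a1 from 3 to 25, both still under the level of barcodes without a cell. The fibroblast markers in pericytes went from 1407 to 1670 CPM and the pericyte markers from 39468 to 35562 CPM, and the part of this in the result was not tested. Col4a1 and Col4a2 were level in pericytes, at log2 0.04 (0.01 to 0.08) and 0.07 (0.02 to 0.12).

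Cortex fibroblasts, 87 in control and 112 in iPCKO, had a median member difference of −0.35 beside −0.02 over all genes of the class, with 2 of 28 members higher and 2 lower past 1.5-fold (5.41% and 6.06% of all genes). Col8a1 was higher, from 110.5 to 392 CPM, log2 1.82 (1.55 to 2.10), whereas Col8a2 stood at 219 and 226 CPM. Col26a1 was lower (−0.69), opposite to pericytes, and so was Col4a1 (−0.59, but −0.58 with the UMI minimum doubled and −0.57 with median-of-ratios scaling). Col1a1 and Col1a2 were at log2 −0.50 and −0.48. Smooth muscle had less Col14a1 (−1.29, from 46.65 to 22.33 UMIs), Col15a1 (−0.87, but −0.49 with clusters) and Col5a1 (−0.76, 0.06 with clusters), endothelial cells less Col4a3 (−0.88) and microglia less Col27a1 (−0.61, or −0.56 with median-of-ratios scaling). In astrocytes Col16a1 was lower (−0.66, or −0.56 with clusters) and Col5a3 higher (0.74), and in neurons Col5a1 was higher (0.84).

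Genes that act on collagens were read from a list of 56, of which 55 were found, in 6 roles, and their counts stand beside 7.80% higher and 5.66% lower of all genes and classes in the Bdnf lung, 14.2% and 15.4% in the Hgf lung and 4.72% and 5.55% in the Nodal cortex. Hydroxylases and glycosyltransferases, which modify the chains before they fold, were higher in 9 and lower in 11 of 140 pairs of gene and class in the Bdnf lung, higher in 3 and lower in 29 of 83 in the Hgf lung, and higher in 1 and lower in 2 of 70 in the Nodal cortex. Chaperones of folding and export counted 6 and 5 of 74, 5 and 18 of 51, and 0 and 3 of 41 in the same order, and enzymes of propeptide cleavage 4 and 9 of 47, 6 and 8 of 31, and 1 and 2 of 19. Crosslinking enzymes counted 5 and 2 of 34, 7 and 6 of 22, and 1 and 3 of 14, and collagen-binding proteins and receptors 5 and 4 of 73, 2 and 22 of 53, and 5 and 5 of 42. Collagen-cleaving proteases and their TIMP inhibitors were higher in 7 and lower in 3 of 59 in the Bdnf lung, 18 and 4 of 44 in the Hgf lung and 6 and 1 of 29 in the Nodal cortex.

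The largest differences by gene were low transcripts in the Bdnf lung, the protease gene Ctsk in club cells (from 3.78 to 10.1 CPM, log2 1.41) and the prolyl isomerase gene Fkbp10 in AT1 cells (from 1.60 to 4.05 CPM, log2 1.34). In the Hgf lung they were the collagen-binding Sparc in immune cells (from 269 to 6.57 CPM, log2 −5.36, but from 10.6 CPM and log2 −0.69 without the 1 Acan-rich cell of that class) and Mrc2, a receptor that takes up collagen, in AT2 cells (from 29.1 to 3.53 CPM, log2 −3.04). In the Nodal cortex the gelatinase gene Mmp2 was higher in pericytes (from 23.3 to 99.8 CPM, log2 2.10 (1.64 to 2.59)) and the protease inhibitor gene Timp3 in neurons (from 5.14 to 22.0 CPM, log2 2.10). Of the 18 higher values of the protease and inhibitor list in the Hgf lung, 8 were Timp3, 3 Timp2 and 1 Timp1, which encode inhibitors, and 2 were Mmp2, 2 Mmp14, 1 Mmp8 and 1 Ctsk.

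Serpinh1 and Lox, chosen after their values were seen, stood out in the Hgf pair. Serpinh1, the collagen chaperone HSP47, was lower past 1.5-fold in all 11 classes with enough UMIs there, beside 2 of 12 in the Bdnf pair and 0 of 6 in the cortex. It went from 1606 to 219 CPM in adventitial fibroblasts, log2 −2.88 (−3.24 to −2.53), and from 808 to 203 CPM in pericytes, log2 −2.0 (−2.42 to −1.59), and the Bdnf pair gave −0.24 and −0.68. Endothelial and AT1 cells, which differ in their collagens, had like differences of −1.45 and −1.42. Lox, which crosslinks fibrillar collagens, was higher in adventitial fibroblasts (476 to 1892 CPM, log2 1.99 (1.84 to 2.15)), matrix fibroblasts (1.31) and myofibroblasts (1.72) of the Hgf pair, and lower in its venous and arterial endothelial cells (−1.39 and −0.94).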

How the data were processed

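Cells of lung and cerebral cortex were sequenced as 6 BD Rhapsody whole-transcriptome libraries, and the deposited matrices hold estimated counts of UMIs per gene and barcode. The authors aligned reads to GRCm39 with STARsolo (STAR 2.7.10a) and a GENCODE annotation, split reads that matched several genes by an EM estimate and deposited the matrices as they were before the study's own filters on barcodes and cells, so 8.5 to 9.95% of nonzero entries were not whole (tolerance 0.001). They were used as deposited.

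Barcodes with at least 1500 UMIs (700 in the Hgf libraries) were kept. A cell was placed in the class with the highest marker score (at least 0.15, at least 2 markers with a UMI) if the next class stayed under 50% of it (80% within a lineage). UMIs were summed per class and library. Collagens, markers and lists were chosen with earlier results of these data known. CPM carries a 95% exact Poisson interval, a ratio the matching exact interval and a share of cells a Clopper-Pearson interval, all of which cover counting error only. A member was named where it differed by 1.5-fold (genotypes) or 2-fold in both lungs (organs), with at least 50 UMIs in at least 20 cells per class. For genotypes the interval also had to leave out 0. The level had to be above free RNA (barcodes with 10 to 100 UMIs) in control or iPCKO, so the other library could lie under it. Organ differences had neither of these limits. The 2 pathway genes with the largest fold per comparison were named too. A count of 0 was given a floor of 3 UMIs.

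Depth per library was 33889545 to 186701379 UMIs, and 21 to 457 barcodes were shared between a pair of libraries, the highest count beside 456.9 for independent draws. Other pairs lay above or below that count for independent draws. Hgf control and Nodal iPCKO shared 108 beside 80.2, Hgf iPCKO and Nodal iPCKO 116 beside 88.7, and Bdnf iPCKO and Hgf iPCKO 404 beside 430.3. Scrublet called 0.649 to 8.75% of barcodes doublets, which stayed in the main values and were left out in an alternative, as were cells with over 25% mitochondrial UMIs. Other alternatives were doubled UMI minimums, a stricter gate, Leiden clusters, median-of-ratios scaling, rounded UMIs, subtracted free RNA, at least 200 UMIs per gene and, chosen after the data were seen, leaving out cells with 10 Acan UMIs. The interval and ratio steps were tested on simulated data. Python 3.11.15, NumPy 2.4.6, SciPy 1.17.1, pandas 2.3.3, Scanpy 1.11.5, python-igraph 0.11.9 and matplotlib 3.10.9 were used.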

Additional observations from a re-analysis of the deposited data

Results flagged for a closer look

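Of 154 pairs of member and class with enough UMIs in both lung pairs, 14 differed in opposite directions in the Bdnf and Hgf pairs, each with a counting interval that left out 0 and a level above free RNA in all 4 lungs, and 31 differed in the same direction by the same limits. These are 9.09% and 20.1%, beside 2.16% and 8.68% of all genes and classes. Of the 12 named differences past 1.5-fold in both lung pairs with the main gate, endothelial subtypes included, 12 had the same direction and 0 the opposite one. They count Col15a1 both in endothelial cells and in their gCap subtype, and no share over all genes was taken for them. In matrix fibroblasts of the Hgf pair, Col1a1 and Col1a2 turned to −0.33 and −0.03 with the stricter gate. With clusters they turned to −1.33 and −1.07. The difference between the pairs was not tested, and 1 library per group gives no replicate error for it.

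In 6 of the 14, all Col4a1 or Col4a2, the level was lower in the Bdnf iPCKO lung and higher in the Hgf iPCKO lung. In pericytes the log2 values were −0.36 and 0.49 for Col4a1 and −0.42 and 0.51 for Col4a2, in AT1 cells −0.22 and 0.39 for Col4a1 and −0.15 and 0.45 for Col4a2. Col4a1 was also at −0.25 and 0.40 in adventitial fibroblasts and −0.45 and 0.38 in matrix fibroblasts. Not all type IV values followed this, endothelial Col4a1 being lower in both iPCKO lungs.

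The other 8 were higher in the Bdnf iPCKO lung and lower in the Hgf iPCKO lung. In adventitial fibroblasts these were Col1a1 (0.11 and −0.32), Col5a1 (0.14 and −0.41), Col5a2 (0.071 and −0.58), Col5a3 (0.40 and −4.51) and the beaded filament chain Col6a3 (0.31 and −0.83). Col6a3 in myofibroblasts was at 0.33 and −1.58, Col3a1 in matrix fibroblasts at 0.39 and −0.54 and Col1a1 in smooth muscle at 0.13 and −1.01.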

How the results depend on the processing

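The count of 29 members with at least 100 CPM stayed between 26 and 30 under all 9 alternatives, and that of 72 organ differences between 48 and 78. A minimum of 200 UMIs per gene lowered the genotype counts from 79 to 48 in the Bdnf lung, from 75 to 39 in the Hgf lung and from 38 to 14 in the cortex, since fewer pairs of member and class were compared. The stricter gate gave 26 higher and 28 lower in the Bdnf lung (main 47 and 32), 15 and 40 in the Hgf lung and 11 and 35 in the cortex.

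Of 1405 single values recomputed, 1264 moved by less than their counting interval, 121 moved further and 20 changed sign, and the cause was not tested. Of 99 recomputed genotype differences past 1.5-fold, with an interval that left out 0 and a level above free RNA in control or iPCKO, 34 fell within 1.5-fold or turned under at least 1 alternative, 15 of them with the stricter gate and 26 with clusters. With classes from clusters the values that turned were, for Bdnf, Col11a1 in adventitial fibroblasts (0.79), Col1a2 in matrix fibroblasts (−0.11), Col3a1 in club cells (0.40) and Col9a3 in endothelial cells (0.32), for Hgf, Col1a1 and Col1a2 in matrix fibroblasts (−1.33 and −1.07), and for Nodal, Col4a1 in microglia (0.049) and Col5a1 in smooth muscle (0.061). Without doublets and mitochondrial cells, all in the Bdnf pair, they were Col2a1, Col9a3 and Col11a1 in endothelial cells (5.38, 0.73 and 3.68) and Col1a1 and Col3a1 in ciliated cells (−0.10 and −0.43). With the stricter gate they were Col1a1 and Col1a2 in matrix fibroblasts of the Hgf pair (−0.33 and −0.031) and Col3a1 in ciliated and club cells of the Bdnf pair (−0.33 and 1.35). With free RNA subtracted they were Col1a1 in endothelial and Col4a4 in club cells of the Hgf pair (0.42 and −0.078), and without the Acan-rich cells Col9a3 in endothelial cells of the Bdnf pair (0.18).

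No paired analysis was possible because each group held 1 library, and for the same reason no replicate was left out. Genotype and library cannot be told apart, nor organ, age and dissociation, and a class with few UMIs limits what counting can show.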

Other observations

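Both control lungs carry loxP-flanked alleles without CreERT2 and share age and depletion, yet they differed in their collagens. Of 33 members in endothelial cells 24 differed past 1.5-fold between them, beside 25.6% of all genes of the class. The median log2 was −1.19 for Hgf control over Bdnf control beside 0.01 over all genes. AT2 cells were alike, with 25 of 33 members, beside 25.8% of all genes, and a median of −0.72. Both are classes in which most collagens stood under free RNA, and free RNA itself held collagens at 0.761% of UMIs in the Bdnf control and 0.449% in the Hgf control. In pericytes 4 of 14 members differed and in smooth muscle 2 of 15, with medians of 0.15 and −0.23. All genes of these classes gave 27.9% and 31.6%, so the members did not exceed that share by much in pericytes and were under it in smooth muscle.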
